A study of Homo sapiens with 12 samples.

Results

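The genes described here carry out the presentation of peptides by major histocompatibility complex (MHC) class I. They are the heavy chains HLA-B, HLA-C and HLA-E, the light chain B2M, the peptide transporter subunits TAP1 and TAP2, the immunoproteasome subunits PSMB8 and PSMB9, and the transactivator NLRC5. They were listed by symbol and make up 9 of the 58721 genes in the count table. All 9 passed the filter on low counts.

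In most nucleated cells the proteasome cuts cytosolic proteins into peptides, TAP1 and TAP2 together carry the peptides into the endoplasmic reticulum, and a heavy chain paired with B2M takes a peptide to the cell surface, where T cells and natural killer cells read it. NLRC5 is drawn to the SXY module in class I promoters and activates several of the genes listed above together. Interferons and NF-kB act on class I promoters through sites of their own. Low class I expression is well known in Ewing sarcoma, a bone and soft-tissue tumor driven by the fusion protein EWS-FLI1.

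RNA was sequenced from EW8 and TC71, a pair of human Ewing sarcoma cell lines. Cells of every group carried a lentiviral Tet-On 3G transactivator and a doxycycline-responsive cassette encoding c-Jun and c-Fos, which together form the transcription factor AP-1, and had been selected with geneticin and puromycin. Each line was given vehicle (the group labelled WT) or doxycycline at 2000 ng/ml (the group labelled AP1_overexpression) for 72 h, with 3 libraries in each of the 4 groups. No library from cells treated with doxycycline but lacking the cassette was analysed here, so doxycycline and AP-1 cannot be told apart. The labels do not say whether libraries of a group came from separate cultures, and p-values then measure the spread between libraries, which may be technical.

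Counts summed to between 42860665 and 60853649 per library. JUN, read together with its transgene, rose from 18.04 to 25.4 CPM (counts scaled to a common library size) with vehicle to between 422.2 and 813.5 CPM with doxycycline over both lines, and FOS from 11.2 to 37.6 CPM to between 998.7 and 1686 CPM. One library stood apart: TC71 vehicle replicate 1 differed from its partners by a chi-square per gene of 61.7 and 63.9, against 5.4 to 11 for every other pair of libraries within a group. The TC71 vehicle comparisons of the 9 genes are therefore given with and without it. All 8 Ewing sarcoma markers were above 6 counts (3 read pairs, the floor used here) in at least 1 library of every group. Of 13 leukocyte and endothelial markers, 8 were above the floor in EW8 with vehicle and 2 in TC71 with vehicle, with summed levels of 94.6 to 102 CPM and 4.06 to 4.74 CPM. With doxycycline 9 and 8 of the 13 were above it, with sums of 127 to 135 CPM and 7.79 to 8.99 CPM. Most of the EW8 sum was PTPRC, the pan-leukocyte surface phosphatase CD45, at 59.6 to 69.2 CPM with vehicle, and CD79A, a chain of the B-cell receptor, at 20.7 to 21.7 CPM. The B-cell marker MS4A1 was at 0 counts in all 12 libraries, and the T-cell marker CD3E had at most 2 counts in any. The part of these cells or transcripts in the line differences below was not tested.

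Promoter sequences are shown first, because the responses of the genes below can be set beside the elements each promoter holds. RefSeq promoters (build GRCh38.p14, 250 bases before to 50 after a transcription start) matched 7 of the 9 genes by symbol, in 9 entries, since TAP1 and PSMB8 have 2 starts each. HLA-E and NLRC5 have no entry. The upstream 250 bases were searched on both strands for 7 motifs. The AP-1 site TGANTCA was found in none of the 9 entries and in 6.59% of 34796 distinct promoters of the same length. The core TGACG of the cyclic AMP response element, which lies within the SXY module of class I promoters, was found in 6 of the 9, against 21.2% of all promoters, and the Y box CCAAT in 5 of the 9, against 32%. An NF-kB pattern, GGNNNTTCC, was present in 5 of the 9, against 17.1%. The interferon-stimulated response element was searched in the forms GAAANNGAA (3 of the 9, against 6.89%) and AANNGAAAC (3 of the 9, against 4.44%), which overlap each other in B2M. The second of these was added after the promoters had been read. GGAAGGAA, a tandem of the core bound by EWS-FLI1, was in none of the 9 and in 3.07% of all promoters. The 9 entries include neighbors and paralogs, and a match is a description of letters, not of a bound site.

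Stretches that hold these matches are given 5′ to 3′ on the strand of the gene, with the matched letters in capitals. They stop before the first exon of any protein-coding transcript of the gene in GENCODE release 44. HLA-B and HLA-C are shown to compare a pair of paralogs that responded alike, B2M because it did not follow them in TC71, and TAP1 because it rose most in EW8 among the transporter and proteasome genes.
HLA-B, chr6:31357294-31357365, minus strand, bases -186 to -115 from the start: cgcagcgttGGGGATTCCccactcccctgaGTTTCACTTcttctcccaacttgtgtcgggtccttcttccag
HLA-C, chr6:31272135-31272292, minus strand, bases -200 to -43: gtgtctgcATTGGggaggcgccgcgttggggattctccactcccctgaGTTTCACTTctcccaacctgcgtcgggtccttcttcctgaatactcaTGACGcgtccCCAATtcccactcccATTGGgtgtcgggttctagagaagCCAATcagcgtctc
B2M, chr15:44711364-44711481, plus strand, bases -153 to -36: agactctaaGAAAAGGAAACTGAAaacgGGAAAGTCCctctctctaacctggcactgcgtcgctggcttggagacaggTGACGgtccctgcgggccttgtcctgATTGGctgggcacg
TAP1, second entry, chr6:32853817-32853846, minus strand, bases -142 to -113: gcggccgctTTCGATTTCGCTTTCccctaa

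The HLA-B stretch lies wholly within an exon of ENSG00000271581, a pseudogene on the opposite strand, and 53 of the 158 HLA-C bases lie in an exon of ENSG00000288813, also on the opposite strand. In the B2M stretch, 77 of 118 bases lie in an exon of a B2M transcript with no defined coding sequence. The 250 bases upstream of HLA-B and HLA-C were 91.9% identical over 246 aligned bases. Both held the interferon element in its second form and TGACG at nearly the same distances. TGACG began at base -106 in HLA-B and at base -105 in HLA-C. Y boxes began at bases -81, -74 and -56 in HLA-B and at -192, -95, -80 and -56 in HLA-C. The NF-kB letters were matched in HLA-B only. TAP1 and PSMB9 are read away from each other, and the second TAP1 start lies 488 bases from the PSMB9 start. That TAP1 entry held a doubled interferon element, an NF-kB pattern and 1 Y box. The first TAP1 entry, 1431 bases from the PSMB9 start, held none of the 7 motifs. TAP2 held an interferon element and TGACG, each PSMB8 entry an NF-kB pattern, and PSMB9 TGACG and a Y box.

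**Figure D1:**
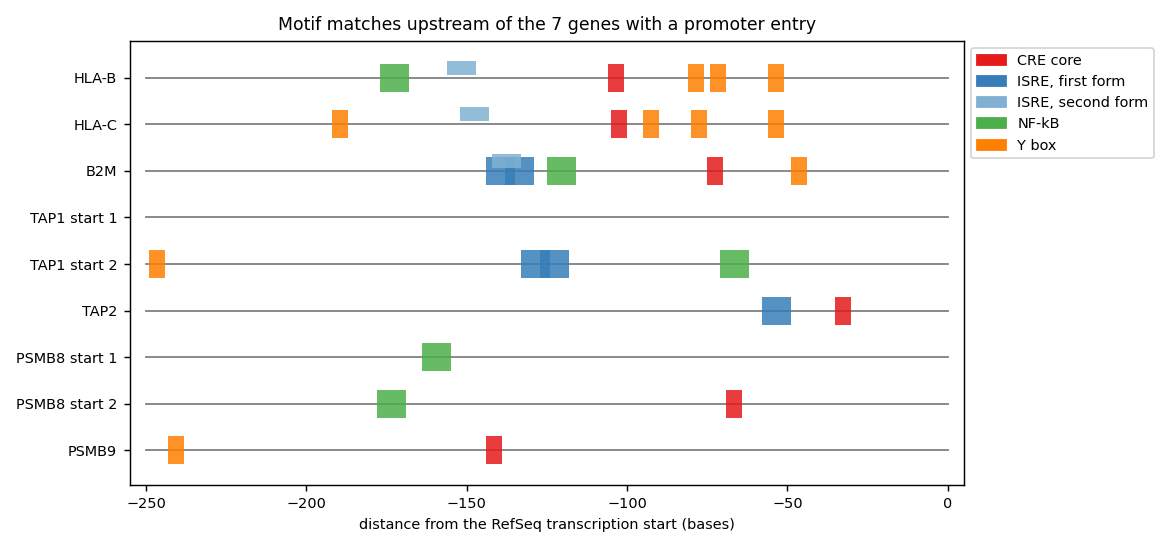
Motif matches in the upstream 250 bases of each promoter entry, with distance from the RefSeq transcription start in bases on the horizontal axis and 1 line per entry (colored boxes: matches on either strand; CRE core, TGACG; ISRE, interferon-stimulated response element). HLA-B and HLA-C have several matches at nearly the same positions, and others in only 1 of the pair. The first TAP1 start has no match.

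Doxycycline raised several class I genes in each line, but the genes with the larger response differed between the lines. In EW8 the genes called higher were HLA-E (3.02-fold), TAP1 (2.80-fold) and NLRC5 (2.35-fold), and in TC71 they were NLRC5 (3.44-fold), HLA-B (2.56-fold) and HLA-C (2.50-fold). None of the 9 was called lower in either line. Genes were called at an adjusted p under 0.05 (edgeR quasi-likelihood test over 21013 genes, Benjamini-Hochberg) with an absolute log2 fold change over 1, and are said to have risen or fallen where the adjusted p was under 0.05. The 3 of 9 called higher compare with 11.4% of all tested genes in EW8 and 12.3% in TC71, and the 0 of 9 called lower with 3.38% and 3.67%. Without the fold limit 6 of the 9 rose in each line, against 21.9% and 25.1% of all tested genes, and none fell, against 22.0% and 20.4%. The median log2 fold change of the 9 was 0.69 in EW8 and 0.565 in TC71, beside -0.03 and 0 over all tested genes. With 9 genes, several of them neighbors, these shares are coarse.

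**Figure D2:**
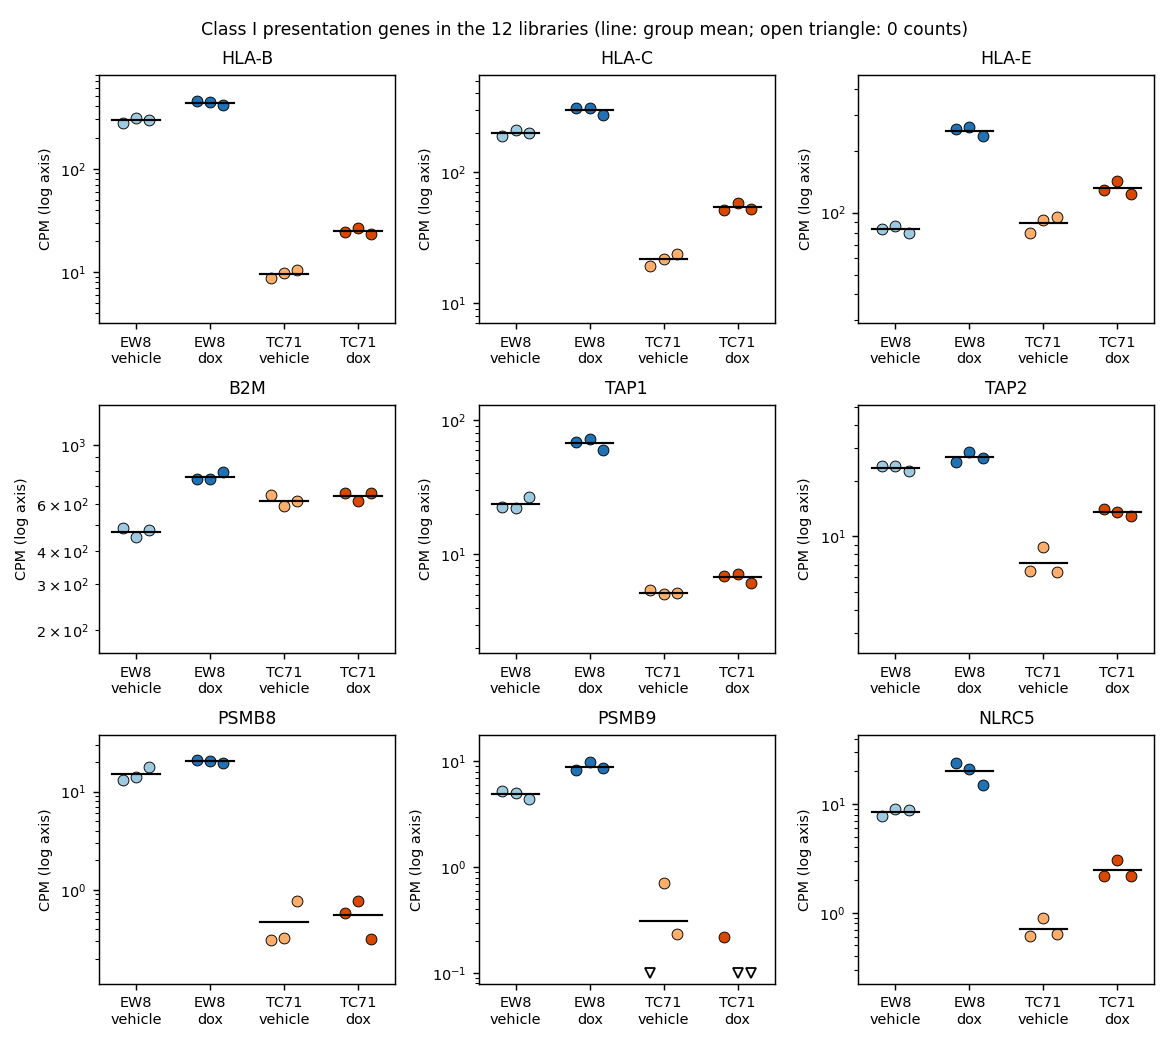
CPM of each gene in the 12 libraries on log axes, 1 panel per gene and 1 point per library, with a line at the mean of each group of 3; open triangles are libraries with 0 counts, drawn at the foot of the panel. HLA-B, HLA-C, TAP1, TAP2, PSMB8, PSMB9 and NLRC5 are lower in every TC71 library than in any EW8 library, and HLA-E and B2M are not.

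NLRC5, the transactivator, was called higher in both lines. Its level in EW8 was 7.71, 8.98 and 8.82 CPM with vehicle and 24.1, 21.0 and 14.9 CPM with doxycycline. The groups did not overlap, although the third doxycycline library was well below the other two. The log2 fold change was 1.24 (SE 0.18, edgeR adjusted p = 1.66e-05). In TC71 the gene was scarce, at 0.611, 0.886 and 0.641 CPM with vehicle (32, 55 and 33 counts) and 2.18, 3.06 and 2.18 CPM with doxycycline. These groups did not overlap either, with a log2 fold change of 1.78 (SE 0.23, edgeR adjusted p = 4.51e-06), or 1.60 without TC71 vehicle replicate 1. The difference between the responses, 0.54 (95% interval -0.07 to 1.16), did not pass the test (edgeR adjusted p = 0.228), and was 0.32 without that library. No exon base of NLRC5, on chromosome 16, is shared with another gene of the annotation.

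HLA-B, a classical heavy chain that presents peptides to CD8 T cells, was abundant in EW8 and low in TC71. In EW8 it measured 274.2, 310.6 and 297.0 CPM with vehicle and 452.4, 438.0 and 417.3 CPM with doxycycline. The lowest doxycycline library exceeded the highest vehicle library, and the change, a log2 fold change of 0.57 (SE 0.07, edgeR adjusted p = 1.26e-06), stayed under the fold limit. TC71 held 8.80, 9.81 and 10.5 CPM with vehicle and 24.6, 26.8 and 23.3 CPM with doxycycline. Again the groups were separate, and the log2 fold change of 1.36 (SE 0.08, edgeR adjusted p = 4.56e-11) was called. Leaving out TC71 vehicle replicate 1 gave 1.215. On the log2 scale TC71 responded more, by 0.79 (SE 0.10, edgeR adjusted p = 1.50e-05), and by 0.60 without that library.

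HLA-C, the other classical heavy chain of the set and the main ligand of inhibitory killer-cell receptors, followed the same course. EW8 libraries measured 187.8, 209.2 and 199.0 CPM with vehicle and 309.5, 308.4 and 275.4 CPM with doxycycline. The groups were apart, with a log2 fold change of 0.58 (SE 0.07, edgeR adjusted p = 2.81e-06), under the fold limit. TC71 libraries measured 19.2, 21.7 and 23.6 CPM with vehicle and 51.5, 57.8 and 52.0 CPM with doxycycline. The rise there was 1.32 (SE 0.08, edgeR adjusted p = 8.79e-11), or 1.17 without TC71 vehicle replicate 1. The TC71 response exceeded that of EW8 by 0.74 (SE 0.11, edgeR adjusted p = 5.54e-05), and by 0.54 without the library.

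HLA-E, a nonclassical heavy chain whose complex with leader peptides of other class I molecules is read by the natural killer cell receptor CD94/NKG2A, responded in the other order. In EW8 its levels of 83.7, 86.0 and 79.9 CPM with vehicle went to 254.2, 261.1 and 237.0 CPM with doxycycline. Every doxycycline library was far above every vehicle library, and the log2 fold change was 1.59 (SE 0.07, edgeR adjusted p = 2.72e-12). In TC71 it went from 79.6, 91.9 and 95.7 CPM to 129.5, 142.6 and 123.4 CPM. The groups were separate but closer, with a log2 fold change of 0.57 (SE 0.07, edgeR adjusted p = 2.94e-06) that was under the fold limit, and of 0.41 without TC71 vehicle replicate 1. The TC71 response was smaller by a log2 difference of -1.03 (SE 0.10, edgeR adjusted p = 7.27e-07), and of -1.23 without the library. No exon base of HLA-E is shared with another annotated gene.

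B2M, the invariant light chain that every class I heavy chain needs to fold and leave the endoplasmic reticulum, rose in EW8 alone. Its levels there were 487.5, 450.3 and 477.0 CPM with vehicle and 743.2, 744.5 and 790.5 CPM with doxycycline. These groups were well apart, at a log2 fold change of 0.69 (SE 0.05, edgeR adjusted p = 4.85e-09), under the fold limit. TC71 measured 648.9, 589.5 and 615.6 CPM with vehicle and 660.2, 616.2 and 662.5 CPM with doxycycline, so the groups overlapped. The log2 fold change of 0.06 had a 95% interval of -0.05 to 0.18 (edgeR adjusted p = 0.348), and without TC71 vehicle replicate 1 it was 0.02. The test of the difference between the lines passed, at -0.62 (SE 0.07, edgeR adjusted p = 7.02e-06), and at -0.71 without the library.

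TAP1 and TAP2 are the subunits of the transporter that moves peptides into the endoplasmic reticulum, and each line raised a different subunit more. TAP1 in EW8 measured 22.6, 22.2 and 26.9 CPM with vehicle and 68.5, 72.2 and 60.2 CPM with doxycycline. The groups were far apart, and the log2 fold change of 1.49 (SE 0.10, edgeR adjusted p = 5.89e-10) was called. In TC71 it measured 5.40, 5.03 and 5.12 CPM with vehicle and 6.96, 7.17 and 6.14 CPM with doxycycline. That rise was small, at 0.38 (SE 0.11, edgeR adjusted p = 0.00897), and 0.33 without TC71 vehicle replicate 1. With the 6 TC71 libraries alone in the fit it no longer passed (0.38, edgeR adjusted p = 0.0582). The TC71 response was below the EW8 response by a log2 difference of -1.10 (SE 0.15, edgeR adjusted p = 2.67e-05), and of -1.20 without the library.

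TAP2 showed the opposite order. Its EW8 levels were 24.1, 24.0 and 22.7 CPM with vehicle and 25.4, 28.8 and 26.7 CPM with doxycycline, which did not overlap but lay close. The log2 fold change was 0.19 (95% interval -0.04 to 0.43, edgeR adjusted p = 0.188), and 0.24 with the 6 EW8 libraries alone in the fit (edgeR adjusted p = 0.0178). In TC71 it measured 6.45, 8.73 and 6.37 CPM with vehicle and 14.1, 13.5 and 12.9 CPM with doxycycline. There the groups were separate, and the log2 fold change of 0.91 (SE 0.12, edgeR adjusted p = 4.45e-06) was just under the fold limit. Leaving out the highest vehicle library, replicate 2, brought it to 1.08 and past the limit, and leaving out replicate 1 brought it to 0.76. The TC71 response was larger by 0.72 (SE 0.16, edgeR adjusted p = 0.0041), by 0.52 without TC71 vehicle replicate 1, and by 0.57 without EW8 doxycycline replicate 1, where the test was no longer passed (edgeR adjusted p = 0.0506). Of the TAP2 exon bases, 32.3% are shared on the same strand with ENSG00000250264, and reads falling there were left out of both counts.

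PSMB8 and PSMB9 replace catalytic subunits of the constitutive proteasome (PSMB5 and PSMB6) and favor peptide ends that class I molecules bind. Neither passed the test with doxycycline when all libraries entered the fit. PSMB8 in EW8 measured 13.1, 13.99 and 17.6 CPM with vehicle and 20.9, 20.5 and 19.3 CPM with doxycycline. All doxycycline libraries were above all vehicle libraries, with a log2 fold change of 0.44 (SE 0.20, edgeR adjusted p = 0.0822). In the fit of the 6 EW8 libraries alone it was 0.49 and passed (edgeR adjusted p = 0.000357). PSMB9 in EW8 measured 5.28, 5.01 and 4.44 CPM with vehicle and 8.27, 9.90 and 8.59 CPM with doxycycline, again with no overlap. Its log2 fold change of 0.86 (SE 0.44) had an edgeR adjusted p of 0.131 in the fit of all libraries, and the 6 EW8 libraries alone gave 0.91 with an edgeR adjusted p of 5.59e-06. Both therefore pass or miss the test according to which libraries set the spread, and their direction in EW8 was the same under every alternative run.

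In TC71 both immunoproteasome genes were close to the lower end of what the depth can measure. PSMB8 had 16, 20 and 40 counts with vehicle and 24, 32 and 14 with doxycycline, which overlapped (log2 fold change 0.26, 95% interval -0.49 to 1.01, edgeR adjusted p = 0.602). Without TC71 vehicle replicate 1 the estimate was -0.03. PSMB9 had 0, 44 and 12 counts with vehicle and 9, 0 and 0 with doxycycline. Its estimate of -2.17 (95% interval -4.20 to -0.13, edgeR adjusted p = 0.0779) rests on 1 library: without vehicle replicate 2 it was -0.69 (edgeR adjusted p = 0.66). Without vehicle replicate 1 it was -2.81 (edgeR adjusted p = 0.000756), and without doxycycline replicate 1 it was -7.04 (edgeR adjusted p = 0.0122), a value set by groups at or near 0. At these counts no direction was detectable for PSMB9 in TC71. The difference between the lines was -0.18 (95% interval -1.05 to 0.68) for PSMB8 and -3.03 (95% interval -5.25 to -0.81, edgeR adjusted p = 0.0524) for PSMB9. Without TC71 vehicle replicate 1 these were -0.52 and -3.71, and the second passed (edgeR adjusted p = 0.000206).

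**Figure D3:**
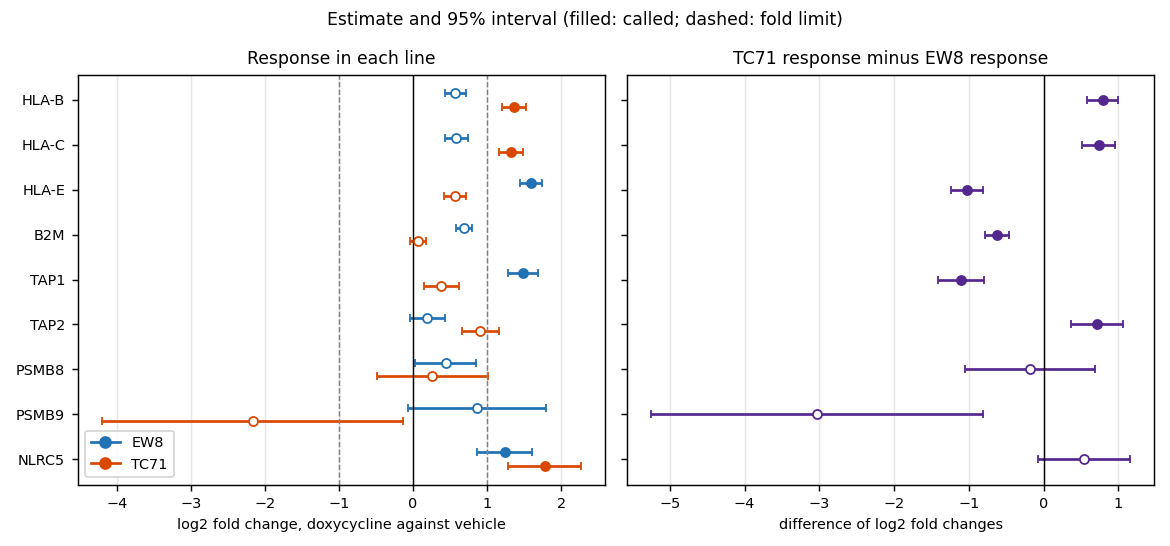
Log2 fold change with doxycycline for the 9 genes in EW8 and TC71 (left) and the difference of these responses, TC71 minus EW8 (right), each with its 95% interval; filled points were called, and dashed lines mark the fold limit on the left. Of the called differences, HLA-B, HLA-C and TAP2 lie to the right of 0, and HLA-E, B2M and TAP1 to the left. PSMB9 lies further to the left and was not called.

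In all, 6 of the 9 responses differed between the lines by the test of the difference itself, with HLA-B, HLA-C and TAP2 larger in TC71 and HLA-E, B2M and TAP1 larger in EW8. This test used an adjusted p under 0.05 and no fold limit, and 12.2% of all tested genes passed it in the first direction and 7.07% in the second. The 3 members in each direction compare with those shares. The induced genes also differed, with responses larger in TC71 by 0.73 (edgeR adjusted p = 0.00217) for JUN and by 2.21 (edgeR adjusted p = 6.41e-12) for FOS.

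Apart from the response, the lines differed in the level of most of the 9 genes. With vehicle, 7 of the 9 genes were called lower in TC71 than in EW8 (18.9% of all tested genes) and none higher (11.6%). The largest differences were those of PSMB8, at a log2 of -5.01 (SE 0.27, edgeR adjusted p = 1.37e-11), and HLA-B, at -4.92 (SE 0.08, edgeR adjusted p = 2.53e-18). These are 32.2-fold and 30.3-fold. PSMB9 was lower by 14.8-fold, NLRC5 by 11.8-fold, HLA-C by 9.25-fold, TAP1 by 4.62-fold and TAP2 by 3.27-fold. HLA-E did not pass, at 0.10 (95% interval -0.05 to 0.25, edgeR adjusted p = 0.245). Without TC71 vehicle replicate 1 it was 0.28 and passed (edgeR adjusted p = 0.000315). B2M was 1.31-fold higher in TC71, which passed the test under the fold limit (edgeR adjusted p = 3.45e-06). With TC71 vehicle replicate 1 left out, the log2 differences were -4.69 for PSMB8, -4.75 for HLA-B, -3.22 for PSMB9, -3.35 for NLRC5, -3.025 for HLA-C, -2.13 for TAP1, -1.53 for TAP2 and 0.46 for B2M, and the same 7 genes were called lower.

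With doxycycline, 6 of the 9 were called lower in TC71 (18.4% of all tested genes), none was called higher (12.6%), and all 9 fell on the lower side by the test. HLA-B remained 17.5-fold lower, and HLA-C 5.54-fold, since both had risen more in TC71. TAP1 moved the other way, from 4.62-fold with vehicle to 9.92-fold with doxycycline. TAP2, at a log2 of -0.99 (SE 0.12, edgeR adjusted p = 5.14e-07), was just outside the fold limit, and passed it under 7 of the alternative settings that are not leave-outs. HLA-E was lower by 1.90-fold and B2M by 1.18-fold. The lines carry their own HLA alleles, reads that mapped to several places were dropped by the counting, and the effect of either on the difference between the lines at HLA-B, HLA-C and HLA-E was not tested.

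Levels of different genes were compared per exon length, as TPM (counts divided by exon length and scaled to a common sum). In EW8 with vehicle the order was HLA-B at 342.3 ± 18.7 TPM (SD, n = 3), HLA-C at 281.5 ± 12.6, B2M at 275.8 ± 14.8, HLA-E at 99.3 ± 2.4, TAP1 at 17.7 ± 2.1, PSMB8 at 17.7 ± 3.0, TAP2 at 13.1 ± 0.33, PSMB9 at 5.68 ± 0.47 and NLRC5 at 2.44 ± 0.19. HLA-C and B2M overlapped over their libraries, as did TAP1 and PSMB8, and the other neighbors in this order did not. In TC71 with vehicle B2M led at 351.5 ± 16.02 TPM, followed by HLA-E at 103.5 ± 9.5, HLA-C at 29.6 ± 2.9, HLA-B at 10.99 ± 0.91, TAP2 at 3.89 ± 0.76 and TAP1 at 3.73 ± 0.14. PSMB8, PSMB9 and NLRC5 were below 1 TPM in every TC71 vehicle library. TAP2 and TAP1 overlapped, as did PSMB8 and PSMB9, and PSMB9 and NLRC5. So HLA-B went from the most abundant of HLA-B, HLA-C and HLA-E in EW8 to the scarcest of these 3 in TC71.

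The balance among these 3 heavy chains shows this most plainly. Together HLA-B, HLA-C and HLA-E came to 723.1 ± 30.9 TPM in EW8 with vehicle and 1195 ± 51.9 with doxycycline, and to 144.1 ± 13.3 and 254.8 ± 16.6 TPM in TC71 (SD, n = 3 each). The sums did not overlap between vehicle and doxycycline in either line. HLA-B made up 47.3% ± 0.64 of the sum in EW8 vehicle libraries and 7.63% ± 0.11 in TC71 vehicle libraries, and HLA-C 38.9% ± 0.089 and 20.5% ± 0.32. HLA-E, the smallest share in EW8 with vehicle at 13.8% ± 0.73, was the largest in TC71 at 71.8% ± 0.38. With doxycycline the HLA-E share in EW8 stood at 24.4% ± 0.42, as those of HLA-B and HLA-C came to 41.3% ± 0.72 and 34.3% ± 0.57. In TC71 the shares moved the other way, with HLA-E at 59.9% ± 0.49, HLA-B between 10.9% and 11.2% and HLA-C between 28.5% and 29.7% over the 3 libraries. No share overlapped between vehicle and doxycycline in either line; these shares were not tested, and a share can move because another gene did.

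**Figure D4:**
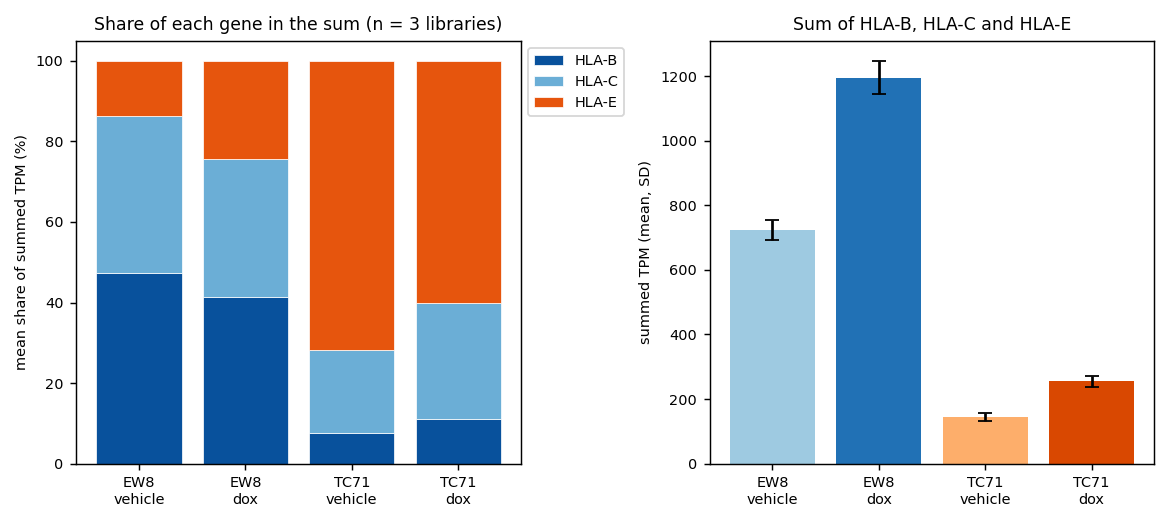
Mean share of HLA-B, HLA-C and HLA-E in their summed TPM (left, in percent) and the sum itself (right, mean with SD), for 3 libraries per group. HLA-B and HLA-C hold most of the EW8 bars, and HLA-E holds most of the TC71 bars.

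HLA-F and HLA-G, nonclassical heavy chains, were at most 5.65 CPM in any library and were called in neither line.

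Against the constitutive subunit it replaces, PSMB8 made up 4.41% ± 0.64 of the summed PSMB8 and PSMB5 TPM in EW8 with vehicle and 6.46% ± 0.44 with doxycycline (SD, n = 3). PSMB9 made up 1.14% ± 0.075 and 2.22% ± 0.22 of its sum with PSMB6. In TC71 the PSMB8 share was 0.0763% ± 0.041 and 0.116% ± 0.045, so the constitutive form made up nearly all of the pair. PSMB10, the third immunoproteasome subunit, was scarce in both lines, at 0.271 to 1.10 CPM over the 12 libraries, and was called in neither. Of the proteasome activator subunits, PSME2 rose in EW8 (log2 fold change 0.39, edgeR adjusted p = 0.00116) and PSME1 fell in TC71 (-0.31, edgeR adjusted p = 0.00159), both under the fold limit.

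The other genes of the pathway were counted from 8 lists with 87 genes, of which 77 were tested. In EW8 13 of the 77 were called higher and 4 lower, and in TC71 12 and 2. The shares over all tested genes were those given above (11.4% and 3.38% in EW8, 12.3% and 3.67% in TC71). At the fold limit these counts were near the background. Without the fold limit 35 of the 77 rose in EW8 and 15 fell, against 21.9% and 22.0% of all tested genes. In TC71 30 rose and 14 fell, against 25.1% and 20.4%. The share that rose was above the background in both lines. The median log2 fold change of the 77 was 0.14 in EW8 and 0.16 in TC71, beside -0.03 and 0 over all tested genes. The called genes were concentrated in a few lists, described next.

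Among 14 transcription factors that act on class I promoters, EW8 raised 3 past the limit and TC71 1, and none and 1 were called lower. The shares over all tested genes were 11.4% and 12.3% higher, and 3.38% and 3.67% lower. IRF1, an interferon-induced activator of class I promoters, was called in both lines, from 2.05, 1.22 and 2.77 CPM to 15.7, 15.99 and 14.1 CPM in EW8 (log2 fold change 2.91, SE 0.22, edgeR adjusted p = 3.42e-09) and from 3.57, 2.51 and 2.95 CPM to 8.97, 8.96 and 7.78 CPM in TC71 (1.51, SE 0.21, edgeR adjusted p = 8.17e-06). NFKB1, the p105 and p50 subunit of NF-kB, went from 27.1, 20.1 and 23.6 CPM to 74.7, 80.3 and 75.7 CPM in EW8 (1.70, SE 0.09, edgeR adjusted p = 4.24e-11), and its TC71 change of 0.20 did not pass (edgeR adjusted p = 0.0834). For IRF1 and NFKB1 the response was larger in EW8 by the test of the difference, at -1.40 and -1.50 on the log2 scale (edgeR adjusted p = 0.00233 and 1.77e-07).

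RFXAP, a subunit of the RFX complex that holds NLRC5 on the SXY module, was lower with doxycycline in both lines. It went from 15.6, 14.1 and 15.5 CPM to 7.48, 7.87 and 8.02 CPM in EW8 (-0.95, SE 0.10, edgeR adjusted p = 4.46e-07) and from 26.5, 25.8 and 23.2 CPM to 10.1, 10.6 and 9.81 CPM in TC71 (-1.31, SE 0.10, edgeR adjusted p = 4.48e-09). It was called in TC71 and fell just short of the limit in EW8. The 3 subunits of NF-Y, which binds the Y box, also had lower estimates in both lines, and each was under the fold limit. CIITA, the class II counterpart of NLRC5, stayed between 6 and 31 counts per library and was called in neither line.

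Of 18 genes for interferons, their receptors and the kinases and factors behind them, 12 were tested. Called higher were 4 in EW8 (11.4% of all tested genes) and 3 in TC71 (12.3%). None was called lower (3.38% and 3.67%). IFNK, interferon kappa, had 0 counts in all 6 vehicle libraries, and had 112, 112 and 93 counts with doxycycline in EW8 and 60, 58 and 18 in TC71. Against a floor of 0 no fold is given. IRF9, the DNA-binding subunit of the factor that type I interferon activates, was called in both lines (log2 fold change 2.36 in EW8 and 1.28 in TC71, edgeR adjusted p = 3.26e-05 and 0.00551). STAT2 was called in EW8 (1.52, edgeR adjusted p = 8.31e-10), where IFNAR2, a chain of the type I interferon receptor, was called too (1.04, edgeR adjusted p = 0.00837). IFNLR1, a receptor chain for interferon lambda, was called in TC71 (1.28, edgeR adjusted p = 1.90e-05). IFNG, IFNL2 and IFNL3 had 0 counts in all 12 libraries, and IFNB1 had at most 5.

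Peptide loading and trimming genes shifted upward by small amounts. Of 7, 5 rose in EW8 and 6 in TC71 without the fold limit, against 21.9% and 25.1% of all tested genes. None fell, against 22.0% and 20.4%, and 1 was called, ERAP2 in TC71. ERAP2, which trims peptides in the endoplasmic reticulum, went there from 3.09, 2.19 and 1.79 CPM to 13.7, 12 and 13.6 CPM (log2 fold change 2.47, SE 0.22, edgeR adjusted p = 3.20e-08). Tapasin (TAPBP), which bridges TAP and the empty heavy chain, rose in EW8 (0.64, SE 0.07, edgeR adjusted p = 9.05e-07), while its TC71 estimate was -0.04 (edgeR adjusted p = 0.711). The difference of the TAPBP responses, -0.68, passed the test (edgeR adjusted p = 0.000102), in the direction of TAP1, HLA-E and B2M. None of the 14 constitutive proteasome genes was called in either line, and their median log2 fold changes were -0.04 and -0.09.

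The list of class I-like genes and HLA pseudogenes held the most calls. Of 14 tested, 5 were called higher in EW8 (11.4% of all tested genes) and 7 in TC71 (12.3%), with 1 (CD1D) lower in EW8 (3.38%). Several encode stress-induced ligands of the natural killer cell receptor NKG2D. ULBP2 was called in both lines, from 1.08, 2.27 and 1.22 CPM to 6.46, 7.39 and 6.99 CPM in EW8 and from 0.993, 1.45 and 1.24 CPM to 10.4, 12.7 and 12.3 CPM in TC71 (log2 fold change 2.19 and 3.26, edgeR adjusted p = 3.52e-07 and 1.73e-09). ULBP3 was called in both as well (1.23 and 3.24, edgeR adjusted p = 4.45e-05 and 6.85e-10). MICA was called in TC71 only (1.43, SE 0.09, edgeR adjusted p = 1.56e-10, against 0.21 in EW8), and the difference of 1.22 passed the test (edgeR adjusted p = 1.01e-06). MR1, which presents vitamin metabolites, was called in both lines (1.04 and 1.59). RAET1E had 0 counts in every vehicle library, and 4, 8 and 8 counts with doxycycline in EW8 and 32, 63 and 51 in TC71. RAET1G was called in TC71 (2.97, SE 0.72, edgeR adjusted p = 0.00225), and its EW8 estimate of -0.33 did not pass (edgeR adjusted p = 0.767). The NKG2D ligands ULBP1 and MICB, named after their values were seen because neither was called, did not share 1 direction. MICB rose by 0.28 in EW8 and 0.65 in TC71 (edgeR adjusted p = 0.00953 and 3.66e-06). ULBP1 went from 15.8 ± 1.88 to 10.8 ± 1.41 CPM in EW8, where its log2 fold change of -0.55 did not pass (edgeR adjusted p = 0.0984). In TC71 it fell from 13.6 ± 6.88 to 7.96 ± 0.603 CPM (-0.77, edgeR adjusted p = 0.0228), although the 2 groups overlapped. HLA-H and HLA-L are pseudogenes close in sequence to the classical heavy chains, and their counts are uncertain for that reason.

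**Figure D5:**
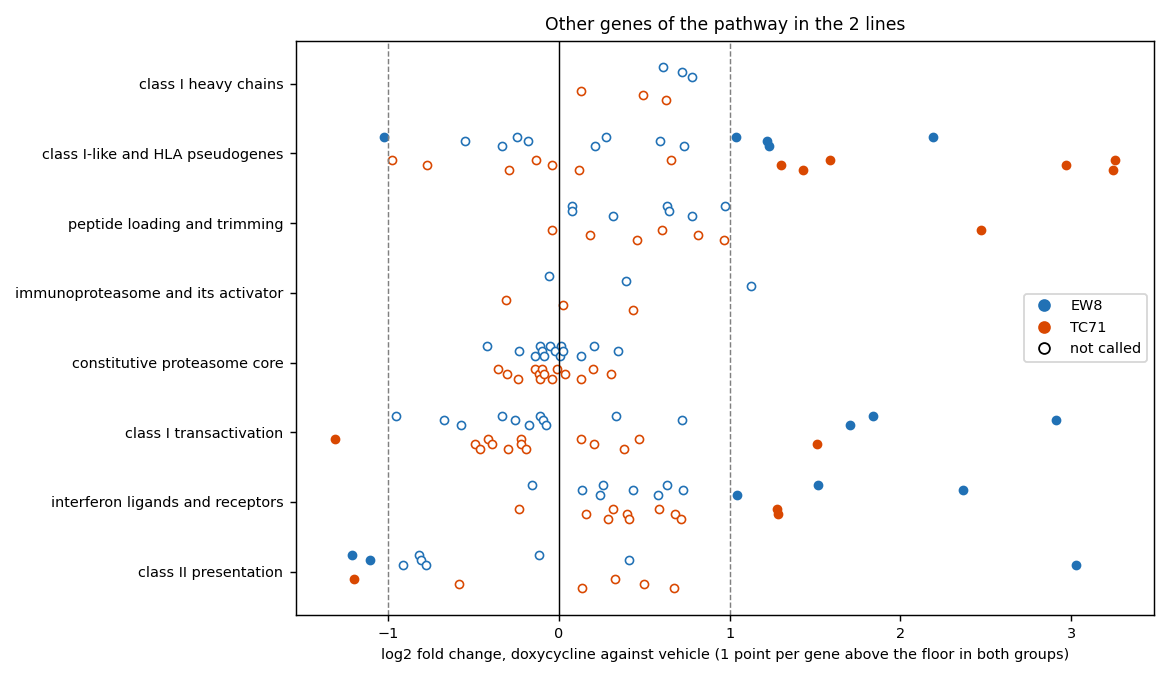
Log2 fold change with doxycycline for the other pathway genes, 1 row per list and 1 point per gene that was above the floor in both groups (74 genes in EW8, 71 in TC71); filled points were called and dashed lines mark the fold limit. The proteasome core lies near 0 in both lines, and the EW8 points of the class II list lie mostly below 0.

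MHC class II genes did not follow class I. Of 10 tested, 6 fell in EW8 without the fold limit, against 22.0% of all tested genes. Of these, 3 were called lower (HLA-DRA, HLA-DQB1 and HLA-DOA), against 3.38%. HLA-DOA had only 6 to 14 counts with vehicle in EW8 and was at the floor with doxycycline, at 0 to 6 counts. HLA-DPA1 went there from 16.2, 18.8 and 17.2 CPM to 9.38, 11.2 and 9.87 CPM (log2 fold change -0.78, SE 0.20, edgeR adjusted p = 0.00332). CTSS, the protease that degrades the invariant chain, was the 1 gene of the list called higher in EW8 (3.03, SE 0.41, edgeR adjusted p = 7.98e-06). In TC71 HLA-DMB was called lower and no other passed. HLA-DRA had 154 to 214 counts in EW8 with vehicle and 0 counts in all 6 TC71 libraries.

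For HLA-B and NLRC5, the tested protein-coding genes with the most similar pattern were found by the root mean square difference of log2 CPM over the 12 libraries, after each gene was centered on its mean. The nearest to HLA-B were CLIP3 (0.10), TP53I11 (0.22) and ANO4 (0.27), and the nearest of the 9 was PSMB8 (0.58). CLIP3 had group means of 119 and 181 CPM in EW8 and 3.67 and 10.4 CPM in TC71, beside 294.0 and 435.9 CPM in EW8 for HLA-B. The nearest to NLRC5 were DMBX1 (0.30), EBF4 (0.33) and CD70 (0.34), and the nearest of the 9 was HLA-C (0.38). These distances are dominated by the difference between the lines and were not tested.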

How the data were processed

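Poly(A) RNA of 12 samples was sequenced in paired-end mode from stranded libraries. The authors aligned reads with STAR to hg38 and counted them over GENCODE 29 exons with featureCounts 2.0.1. The deposited values are raw read counts per gene, and the exon length in the same table was used for TPM. Per the file headers, the options for pairs, strand, multi-mapped and overlapping reads were not set. Mates were therefore counted singly, and reads from near-identical HLA genes or from overlapping exons were lost, which lowers the counts of HLA genes, TAP2 and PSMB8 by an unmeasured amount.

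Groups were taken from the sample labels. Genes with low counts were removed (filterByExpr, 21013 of 58721 kept), libraries were scaled by TMM, and all 12 entered 1 quasi-likelihood fit in edgeR 4.0.16 (R 4.3.3) with 4 groups as levels. The Benjamini-Hochberg adjustment covered all tested genes. CPM is TMM-scaled, and errors are SD of 3 libraries or SE of a log2 fold change. The script was tested on simulated counts. A gene was at the floor in a group at 6 counts or fewer in each library, which covers counting error only. Genes were named by a rule (the 9 genes, genes of the lists called in a line, at the floor or partners of the 9, and the 3 nearest in pattern). The 9 genes and the lists were chosen with earlier results of these data known. Alternatives were other scalings, filters, DESeq2 1.42.0 (which the authors used), a replicate block, halved counts, fewer groups in the fit, no fold limit and leaving out each library.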

Additional observations from a re-analysis of the deposited data

Results flagged for a closer look

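The responses of 6 genes to doxycycline differed between the lines by the interaction term of the fit. The response in TC71 minus that in EW8, on the log2 scale, was 0.79 for HLA-B, 0.74 for HLA-C and 0.72 for TAP2, which rose more in TC71. It was -1.03 for HLA-E, -0.62 for B2M and -1.10 for TAP1, which rose more in EW8. Each kept its sign under all alternatives run, and the TAP2 difference missed the threshold in 1 of them.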

How the results depend on the processing

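Of 867 values of single genes recomputed under alternatives, 837 kept their direction and stayed called or uncalled (by adjusted p and, where used, the fold limit), 24 became called and 1 (TAP2, difference between the lines) ceased to be. The other 5 changed sign and were called neither way: B2M in TC71 was -0.031 with library size alone, and leaving out 1 library at a time took PSMB8 in TC71 from -0.043 to 0.763 and its difference between the lines from -0.517 to 0.279. By adjusted p alone, 22 values came under 0.05 and 2 left it, TAP1 in TC71 with only the groups compared and the TAP2 difference. Without the fold limit, 6 members were called higher in EW8 and 6 in TC71, and 1 higher in TC71 than EW8 under vehicle, while the other pathway genes called were 35 higher and 15 lower in EW8 and 30 and 14 in TC71. With no filter on low counts, 1 member (PSMB9) was called lower in TC71. Other pathway genes called lower in EW8 were 0 with at least 10 counts required in every library, which removes genes, and 2 with only the groups compared in the fit. Leaving out 1 library at a time gave 0 to 1 members called lower in TC71, 3 to 4 called higher there, 2 to 3 with a larger and 3 to 4 with a smaller response in TC71, and 6 to 8 lower in TC71 under doxycycline. It gave 1 to 4 other genes lower and 11 to 15 higher in EW8, and 1 to 3 and 12 to 13 in TC71. The study names no pairing of libraries. The deviations of same-numbered libraries correlated at -0.028 to 0.01, and those of other-numbered libraries at -0.03 to 0.046. These values cannot decide whether libraries were paired, since paired libraries need not share deviations. With the replicate block, 3 members were called higher in each line and 0 lower, 3 had a larger and 3 a smaller response in TC71, and other pathway genes numbered 13 and 3 in EW8 and 12 and 2 in TC71. At these depths PSMB8 and PSMB9 in TC71 were too low for a change to be measured.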
